A study of Mus musculus with 6 samples.

Results

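The Mediator complex joins transcription factors bound at enhancers to RNA polymerase II at the promoter. Its subunits form a head and a middle module that contact the polymerase, a tail module that contacts activators, and the scaffold subunit Med14 that runs through them. A kinase module (Cdk8 or Cdk19, cyclin C, and Med12 and Med13 or their paralogs Med12l and Med13l) binds the core reversibly and regulates its contact with the polymerase. In human, variants of MED13L cause congenital heart defects with intellectual disability. In mouse heart, Med13 is known as a regulator of cardiac metabolism. The genes described here are those of the Mediator subunits, taken by name as Cdk8, Cdk19, Ccnc and every symbol that starts with Med followed by a digit. The rule found 34 genes among the 18193 named by single-gene probe sets, and 33 of them encode subunits. The remaining gene, Med9os, is a non-coding RNA gene next to Med9 and is not counted among the subunits below. The 33 subunits and Med9os were represented by 73 probe sets, and for each gene the probe set with the highest mean log2 signal over all 6 arrays was used. That mean chose the probe set, and the family was proposed with results of these arrays known.

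Hearts of C57BL/6 mouse embryos were taken at stage E12.5, and their total RNA was measured on 3 arrays labelled wildtype and 3 labelled Rhau KO, where Rhau is an older name of the RNA helicase gene Dhx36. The labels give the second group as Rhau deletion, without the deleted part of the gene, the allele, or any promoter or Cre that would limit the deletion to some cells. According to the design description, 3 hearts were dissected from each group for 6 RNA samples in all. Values are log2 MAS5 signals, and each array carries the same trimmed mean. The comparison set the Mediator transcripts of the arrays labelled Rhau KO against those of the arrays labelled wildtype.

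Some properties of the arrays bear on every value that follows. Dhx36 signal was 8.99, 8.88 and 8.71 in the arrays labelled wildtype and 10.10, 10.48 and 10.23 in those labelled Rhau KO, so the targeted gene was 2.66-fold higher under the deletion label (adjusted p = 1.46e-05). That difference rests on the brightest Dhx36 probe set alone. Where this probe set lies relative to the deleted part of the gene was not tested. Its signal goes against the label, so groups are named by their label. If the labels were exchanged, each direction below would turn. The signal of 3 Y-linked genes, each set relative to its brightest array and averaged, ran from 1.23% to 39.3% under the wildtype label, against 59.6% to 100% under the other. Both Xist and Y-linked signal were carried by 3 arrays, wildtype replicate 3 and Rhau KO replicates 1 and 2. That goes against 1 heart per array, the labels do not mention pooling, and so the spread that the SDs measure is not known. The mean of 11 cardiomyocyte markers was between 14.19 and 14.43 on all arrays. Of these 11, 3 fell, where 10.8% of all genes tested fell and 8.20% rose, and the count was 1 without wildtype replicate 1, 5 without Rhau KO replicate 3 and 0 once Y-linked signal entered the fit as a covariate. Of 12 measured erythroid markers 8 fell and 0 rose, and their mean per array was 10.80 to 11.03 for the wildtype arrays against 9.86 to 10.24 for the others. Of 12 endothelial markers 6 rose and 0 fell, with means of 9.85 to 9.88 and 10.07 to 10.18, and 3 rose without wildtype replicate 2. Macrophage marker means were 7.80 to 7.98 and 8.25 to 8.49, with 2 of 10 higher. That count was 1 without wildtype replicate 1, Rhau KO replicate 2 or Rhau KO replicate 3. Of 8 genes listed as skeletal muscle markers 5 were tested and 3 fell, among them Ckm at -1.04, which heart muscle expresses too. Means of the 5 were 9.71 to 9.88 and 8.36 to 8.75. Single genes weighed heavily on these means, Lyz2 at 2.98 and Tnnt3 at -3.89, where the median differences of the 2 lists were 0.27 and -0.89. Of 8 genes listed as liver and gut epithelium markers 5 were tested and 2 fell, Krt8 at -0.55 and Krt18 at -0.41. These keratin genes are not particular to liver and gut. The part of all these cell types in the Mediator differences was not tested. In tissue RNA, fewer cells of a type and less RNA per cell cannot be told apart.

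Among the 33 subunit genes, 4 fell and 2 rose in the arrays labelled Rhau KO, and 27 did not pass the test. Med13l fell 1.91-fold, Med12l 1.40-fold, Med10 1.37-fold and Med9 1.35-fold, while Med18 was 1.30-fold and Med31 1.18-fold higher. Across all 12416 genes tested, 19.0% passed in either direction, 8.20% as higher and 10.8% as lower. Of all calls 43.2% were higher, against 22.4% with each array centred on its median, where 0 subunits were called higher and 4 lower. The share of called subunits, 18.2%, lay near that background and is no result about the family. Groups did not overlap for 5 subunits that were higher and 4 that were lower, 27.3% of the 33, against 37.1% of all genes tested (18.4% higher and 18.7% lower). The median difference of the subunits was 0.04 on the log2 scale, against 0.01 for all genes, and the median size of the difference was 0.10 against 0.15. These sizes were not matched for signal. The lowest group mean of a subunit was 8.46, while the genes tested reached down to the filter at 5.90. The mean log2 signal of all subunits was between 9.95 and 9.99 on the 6 arrays.

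**Figure D1:**
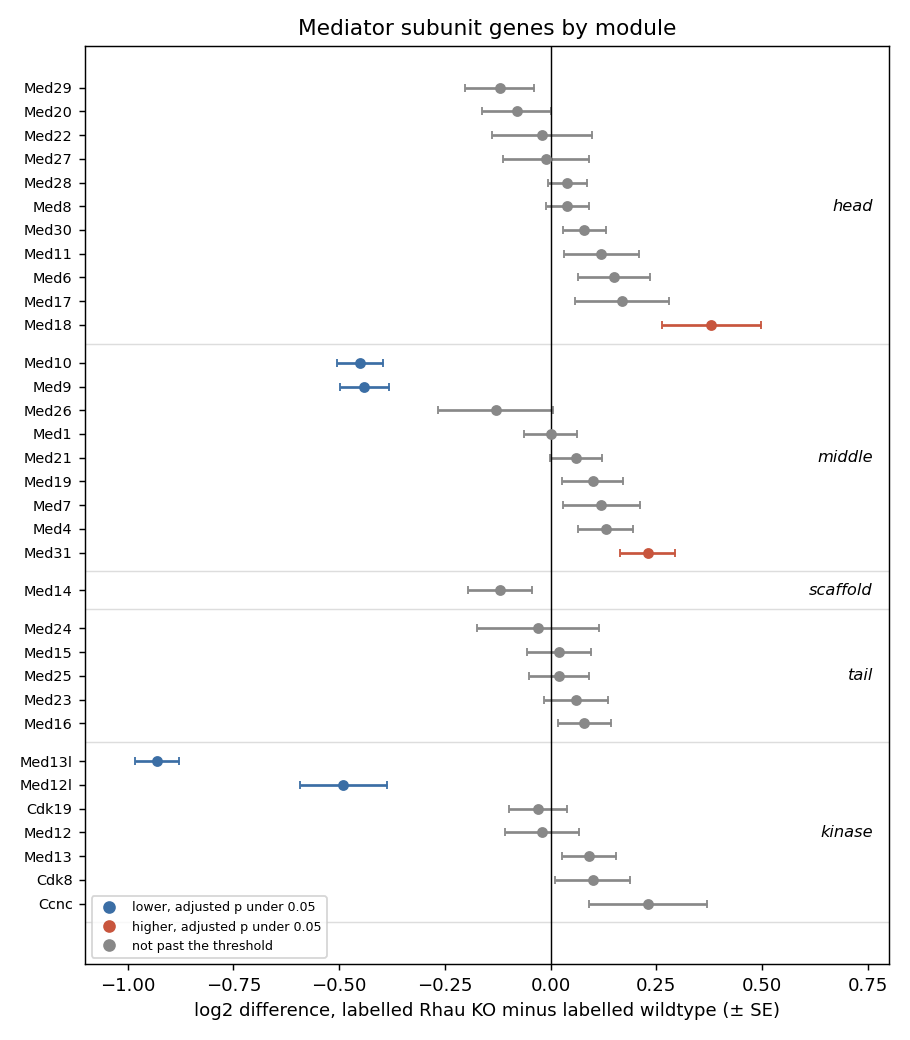
Log2 difference (labelled Rhau KO minus labelled wildtype, 3 arrays each, ± SE of the fit) of each of the 33 subunit genes, grouped by module; blue points fell, red points rose and grey points did not pass an adjusted p of 0.05. Med13l at -0.93 stands furthest from 0, with Med12l, Med10 and Med9 between -0.49 and -0.44, and the grey points lie between -0.13 and 0.23.

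On the brightest probe set, the measurement was precise for most subunits. Every one of the 33 was tested, the lowest group mean was 8.46 and the lowest single value 8.19, all well above the filter at a log2 signal of 5.90, so no subunit passed the filter through one group alone. SDs within a label ran from 0.02 to 0.31, and the SE of the difference from 0.047 to 0.144 with a median of 0.076. For 26 of the 27 subunits that did not pass, the difference with 2 SE on each side stayed within 0.5 on the log2 scale. The exception was Ccnc at 0.23 (SE 0.140). Of the called differences only that of Med13l, at -0.93, lay outside this bound. The bound therefore does not set the uncalled subunits apart from the called ones. A missed threshold does not show that these transcripts were alike under both labels.

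In the kinase module, Med13l had the strongest difference of the family. Med13 and Med13l encode the subunits that tether the kinase to the Mediator core. Med13l signal was 11.48, 11.50 and 11.47 in the arrays labelled wildtype and 10.54, 10.51 and 10.60 in those labelled Rhau KO. The 2 groups stood apart by far more than the arrays of one label differed, with means of 11.48 ± 0.02 and 10.55 ± 0.05 (SD, n = 3 each). The difference of -0.93 (SE 0.052) had an adjusted p of 3.26e-06 and ranked 198 by size among 12416 genes. It was the single subunit that kept its call when the Y-linked signal of each array was added as a covariate, at -0.96 (SE 0.119). Y-linked signal did not overlap between the labels, so that fit can hardly tell the covariate from the label. Over all genes, 46 were then called higher and 132 lower, against 1018 and 1336 without the covariate. A call lost or kept in that fit therefore does not separate the label from Y-linked signal.

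Another Med13l probe set, designed from the same database sequence, gave 10.94, 10.91 and 10.85 under the wildtype label, against 9.78, 9.71 and 9.79 under the Rhau KO label. Its difference of -1.14 was a 2.20-fold lower signal (adjusted p = 4.54e-06 with every probe set tested on its own, where 7.84% of 22796 were called lower). The third Med13l probe set, dimmer and designed from another sequence, read 7.03, 7.16 and 6.67 against 7.22, 7.15 and 6.98. Those groups overlapped, and the difference of 0.17 did not pass (adjusted p = 0.605). The positions of these probe sets on the Med13l transcript were not analysed here.

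Med12l, the paralog of the Cdk8-activating subunit Med12, also fell. Its signal was 9.68, 9.55 and 9.71 under the wildtype label, against 9.31, 8.93 and 9.23 under the Rhau KO label. All 3 arrays labelled Rhau KO lay below all 3 labelled wildtype, and replicate 2 was the lowest of them. The difference was -0.49 (SE 0.103, adjusted p = 0.00849), or -0.38 without that array. The call was kept when any 1 array was left out, and lost with the Y-linked covariate at the same -0.49 with a wider SE of 0.237. The other Med12l probe sets lay below the filter, at differences of -0.75 and -0.99 with overlapping groups.

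The canonical kinase subunits did not pass. Med12, which is X-linked, was at 9.07 ± 0.10 and 9.06 ± 0.05 (mean ± SD, n = 3 each), a difference of -0.02, and Med13 at 9.83 ± 0.03 and 9.92 ± 0.04. Med13 groups did not overlap, but the difference of 0.09 had an adjusted p of 0.388. The kinase gene Cdk8 stood at 10.75, 10.87 and 10.66 against 11, 10.66 and 10.93, and its groups overlapped at a difference of 0.10 (SE 0.089). Ccnc, which encodes the cyclin that activates both kinases, differed by 0.23, with 1 array labelled Rhau KO at 9.17 and the other two at 8.65 and 8.68. Cdk19, the paralog of Cdk8, differed by -0.03 on its brightest probe set. A dimmer Cdk19 probe set read 8.47, 8.47 and 8.56 against 8.25, 8.16 and 8.01, without overlap, and at -0.35 missed the threshold (adjusted p = 0.0551).

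The paralogs were therefore compared as ratios within each array, which a scaling of the whole array leaves as they are on the log2 scale. The log2 ratio of Med13 over Med13l was -1.65, -1.70 and -1.61 in the arrays labelled wildtype and -0.60, -0.58 and -0.73 in those labelled Rhau KO. It was thus 1.02 higher under the Rhau KO label, with no overlap. The two-sided exact permutation p was 0.10, the smallest that 3 against 3 arrays allow, and 0.15 adjusted over the 3 pairs. The ratio of Med12 over Med12l was -0.68, -0.52 and -0.52 against -0.26, 0.09 and -0.12, again without overlap. That shift was 0.47 (exact permutation p = 0.10, adjusted 0.15). Cdk8 over Cdk19 overlapped between labels, at 1.0, 1.09 and 0.81 against 1.22, 0.84 and 1.23, with a shift of 0.13 (exact permutation p = 0.50, adjusted 0.50). These ratios reuse the values above, where Med13l differed by -0.93 and Med13 by 0.09, and Med12l by -0.49 and Med12 by -0.02. The first 2 shifts thus mostly restate the falls of Med13l and Med12l and are no separate evidence. This design could not reach a threshold of 0.05 for any pair. The level of a ratio between 2 probe sets is not a ratio of transcripts.

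**Figure D2:**
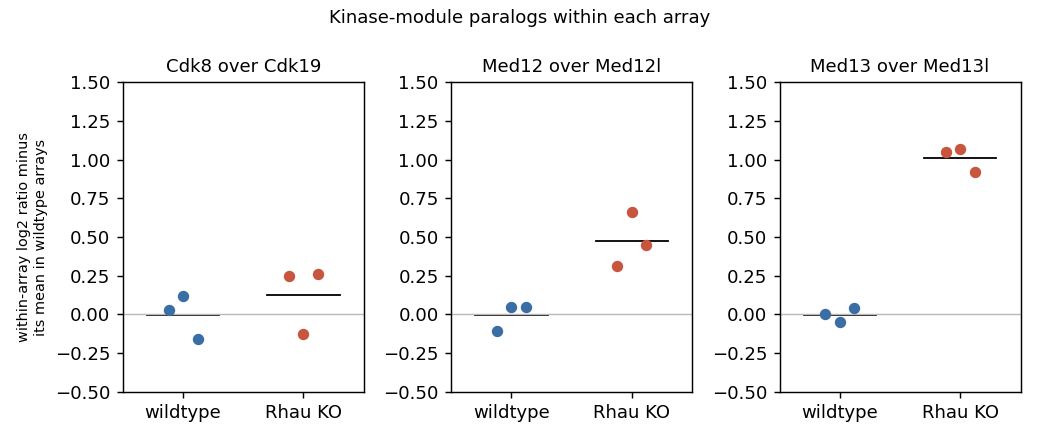
Within-array log2 ratio of 3 pairs of kinase-module paralogs, each shown minus its mean over the arrays labelled wildtype, with 1 point per array and a bar at the group mean. The ratio of Med13 over Med13l lies about 1.02 higher in the arrays labelled Rhau KO and that of Med12 over Med12l 0.47 higher, both without overlap, while Cdk8 over Cdk19 overlaps.

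In the middle module, Med10 and Med9 fell and Med31 rose among 9 measured genes. That is 33.3% called, where 19.0% of all genes tested were called, and no test was run over the module. Med10 signal was 11.70, 11.59 and 11.71 under the wildtype label, against 11.23, 11.23 and 11.16 under the Rhau KO label. The groups stood well apart, by -0.45 (SE 0.054, adjusted p = 2.96e-04), and a single probe set measured the gene. Med9 signal was 10.89, 10.80 and 10.88 against 10.38, 10.43 and 10.45, a difference of -0.44 (SE 0.057, adjusted p = 5.30e-04) with no overlap. The other Med9 probe set, from the same database sequence, was lower too, at 8.84, 8.91 and 9.09 against 8.29, 8.37 and 8.28. Its difference of -0.64 passed when every probe set was tested on its own (adjusted p = 0.00264). Calls for Med10 and Med9 were kept when any 1 array was left out. Both were lost with the Y-linked covariate, at -0.47 and -0.52 with wider SEs of 0.124 and 0.126.

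Med31, a small conserved middle subunit needed for normal embryonic growth in mouse, was at 10.06, 10.06 and 10.02 under the wildtype label, as against 10.36, 10.20 and 10.30 under the Rhau KO label. The groups did not overlap, and the difference of 0.23 (SE 0.065) had an adjusted p of 0.0306. Its call was kept without replicate 2 labelled Rhau KO, at 0.28, and lost without any other array, at 0.20 to 0.24. With each array centred on its median the difference was 0.16 and the call was lost. Of the other middle subunits, Med4 (0.13), Med7 (0.12), Med19 (0.10), Med21 (0.06), Med1 (0.00) and Med26 (-0.13) did not pass. Med1, the main docking subunit for nuclear receptors, read 10.21, 10.23 and 10.32 against 10.19, 10.29 and 10.28, so that its groups overlapped fully. Med26, which recruits elongation factors to the complex, had 1 array labelled Rhau KO at 8.75 and another at 8.19, against 8.54 to 8.61 under the wildtype label. Med4 groups did not overlap, at 10.19 ± 0.08 and 10.32 ± 0.02 (SD, n = 3 each), though the adjusted p was 0.189.

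**Figure D3:**
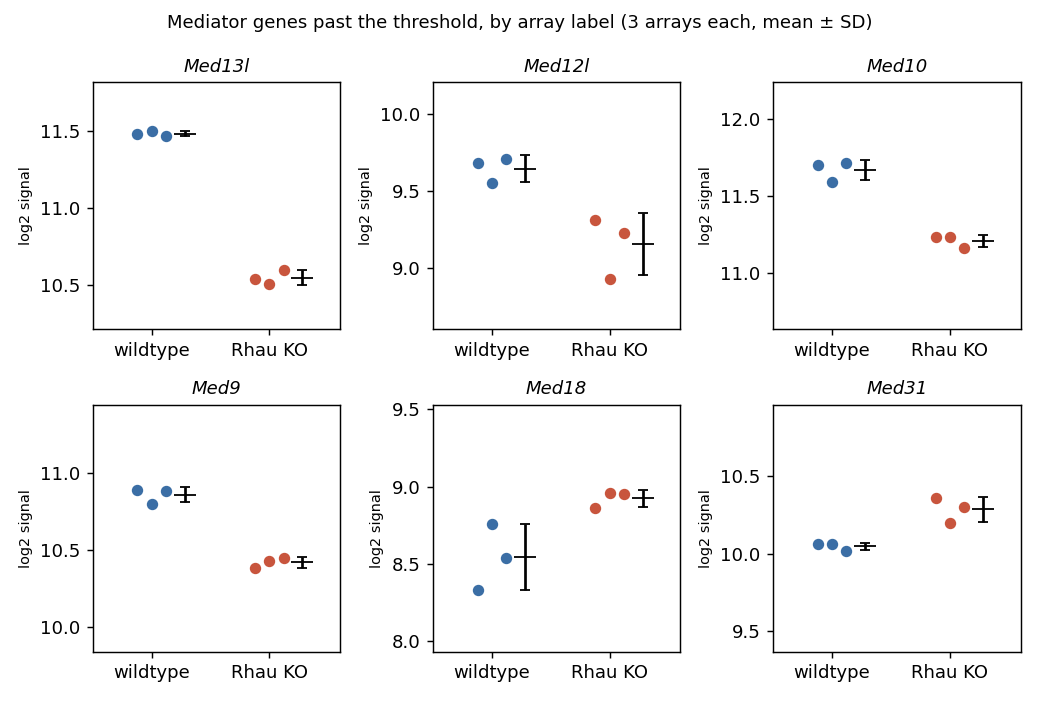
Log2 signal of the 6 subunit genes that passed the test, with 1 point per array, the arrays labelled wildtype in blue and those labelled Rhau KO in red, and the mean ± SD of each label in black; every panel spans 1.6 log2 units. In each panel the groups do not overlap, and Med18 has the widest spread under the wildtype label, from 8.33 to 8.76.

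In the head module, which contacts the polymerase, Med18 was the single subunit of 11 that passed (9.1%, against 19.0% of all genes tested). Med18, which pairs with Med20 in the movable part of the head, was at 8.33, 8.76 and 8.54 under the wildtype label, as against 8.86, 8.96 and 8.95 under the Rhau KO label. The lowest array labelled Rhau KO was above the highest labelled wildtype by less than the arrays labelled wildtype differed among themselves. The difference was 0.38 (SE 0.117, adjusted p = 0.0449). The call was kept without replicate 2 labelled wildtype, at 0.49, and lost without any other array, at 0.27 to 0.41. Its partner Med20 did not pass at -0.08, and the other Med20 probe set at -0.13 did not overlap between labels (adjusted p = 0.262). Med17, the central subunit of the head, stood at 9.45, 9.31 and 9.14 against 9.47, 9.65 and 9.29, which overlapped at 0.17. Med30, whose mutation causes cardiomyopathy in mouse, was at 11.34 ± 0.03 and 11.42 ± 0.04 (SD, n = 3 each), without overlap, and at 0.08 did not pass (adjusted p = 0.271). The remaining head subunits, Med6, Med8, Med11, Med22, Med27, Med28 and Med29, differed by -0.12 to 0.15.

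None of the 5 tail subunits passed by limma, where 19.0% of all genes tested passed, and none reached an unadjusted p of 0.05. Of all 33 subunits, the 6 called genes were also the 6 with an unadjusted p under 0.05. Med15, a target of SREBP and Smad activators, differed by 0.02, Med23, which receives signals through Elk1, by 0.06, Med16 by 0.08 and Med25 by 0.02. Med24 differed by -0.03 with the widest spread, from 8.43 to 9.04 in the arrays labelled wildtype. The tail values ranged least of the 4 modules, between -0.03 and 0.08.

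Med14, the X-linked scaffold subunit, did not pass on its brightest probe set. That probe set read 10.84, 10.69 and 10.71 under the wildtype label, against 10.57, 10.53 and 10.78 under the Rhau KO label, with overlap, at a difference of -0.12 (SE 0.076). The other probe sets above the filter were further apart. One read 7.85, 7.85 and 7.82 against 7.52, 7.33 and 7.53 (difference -0.38, adjusted p = 0.0819), and the others differed by -0.42 and -0.59 (adjusted p = 0.132 and 0.0849). On all 3 the arrays labelled Rhau KO lay below those labelled wildtype, and no call was made. Xist signal, which accompanies a second X chromosome, was also lower under the Rhau KO label, at 0.232% to 61.1% of the highest array against 77.2% to 100%, and its part in the Med14 values was not tested.

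Second probe sets thus bear on the description of several subunits. Of 39 other probe sets of the subunits, 24 lay above the filter. The test was passed by 2 of these 24, those of Med13l and Med9, where 14.6% of all 22796 probe sets passed (7.84% lower and 6.80% higher). Groups did not overlap for 7 that were lower and 1 that was higher, where 34.4% of all probe sets did not overlap (15.9% lower and 18.5% higher). The higher one belonged to Med13, at 6.05, 6.05 and 5.62 against 6.54, 6.43 and 6.38, near the filter level, with a difference of 0.54 (adjusted p = 0.158). With all probe sets of a gene averaged, Med13l stood at -0.64 and kept its call, whereas Med12l at -0.74 lost it.

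**Figure D4:**
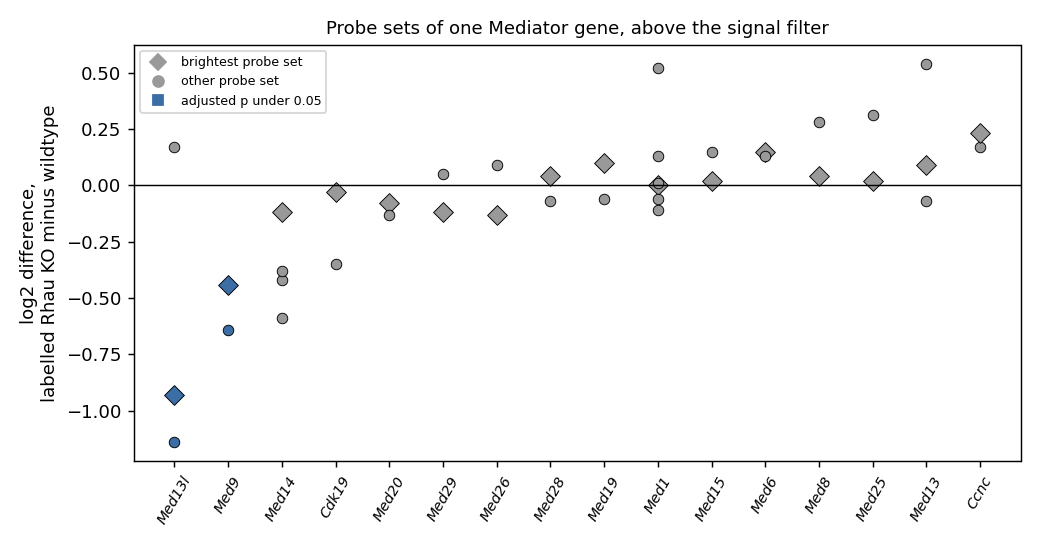
Log2 difference of each probe set above the filter (labelled Rhau KO minus labelled wildtype) for subunit genes with more than 1 such probe set; diamonds are the brightest probe set, circles the others, and blue marks an adjusted p under 0.05 over all probe sets. Med13l has probe sets at -1.14, -0.93 and 0.17, Med9 at -0.64 and -0.44, and the dimmer Med14 probe sets lie below the brightest one at -0.12.

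Promoter sequence was examined for the genes that passed, to show whether their start regions share a motif. RefSeq windows of 250 bases before and 50 after the annotated start (build GRCm38.p6) were matched for 28 of the 33 subunits. The bases before the start that lie outside the annotated gene are shown for Med9, Med10, Med18 and Med31. Those of Med13l and Med12l lie inside the annotated span of the gene and are not shown. The same holds for a second Med10 window, and which of the 2 Med10 starts the measured transcript uses was not tested. Capitals mark motif matches in Med10, Med18 and Med31, and in Med9 the stretch between 2 divergent starts. The windows are chr11:59947964-59948213 (plus strand), chr13:69802120-69802347 (plus strand), chr4:132463922-132464171 (minus strand) and chr11:72215593-72215842 (minus strand), each written 5′ to 3′ on the strand of the gene.
Med9: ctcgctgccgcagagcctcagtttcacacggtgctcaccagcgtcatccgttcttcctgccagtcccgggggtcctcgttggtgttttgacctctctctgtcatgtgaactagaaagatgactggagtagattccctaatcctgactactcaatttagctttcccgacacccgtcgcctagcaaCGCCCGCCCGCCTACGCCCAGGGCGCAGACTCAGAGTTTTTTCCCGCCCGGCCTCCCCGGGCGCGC
Med10: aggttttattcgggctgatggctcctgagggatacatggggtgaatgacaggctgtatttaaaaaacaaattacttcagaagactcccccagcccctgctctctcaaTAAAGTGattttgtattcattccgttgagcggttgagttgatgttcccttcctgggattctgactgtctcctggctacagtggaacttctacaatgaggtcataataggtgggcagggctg
Med18: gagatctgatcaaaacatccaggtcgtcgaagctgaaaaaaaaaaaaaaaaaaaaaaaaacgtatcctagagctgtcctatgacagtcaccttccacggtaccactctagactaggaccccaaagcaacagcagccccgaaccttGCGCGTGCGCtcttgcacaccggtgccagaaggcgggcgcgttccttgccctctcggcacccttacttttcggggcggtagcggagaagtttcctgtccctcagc
Med31: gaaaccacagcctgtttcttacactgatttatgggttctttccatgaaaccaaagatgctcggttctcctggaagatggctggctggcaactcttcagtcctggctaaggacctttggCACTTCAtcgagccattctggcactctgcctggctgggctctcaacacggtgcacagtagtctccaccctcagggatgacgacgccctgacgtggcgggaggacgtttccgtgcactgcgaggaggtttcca

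The 66 capitals of Med9 are the bases between its start and that of Med9os, which is read from the opposite strand. Med9os was at 5.98, 6.52 and 6.74 under the wildtype label, as against 6.76, 6.43 and 7.21 under the Rhau KO label. Its groups overlapped, and the difference of 0.39 (SE 0.273) did not pass (adjusted p = 0.359), while Med9 on the other side of these bases fell by 0.44. The Med9os signal was close to the filter level.

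Motifs were searched on both strands of each 300-base window. Dhx36 unwinds G-quadruplexes, and the pattern of 4 runs of GGG or longer, with 1 to 7 N between them, was found in 5 of 28 subunits (17.9%: Med6, Med10, Med13, Med15 and Med21) and in 20.4% of all 27025 genes in the table. Among the 6 genes that passed, Med10 alone held it, in a second window that lies inside the annotated gene. TNAAGTG, the core bound by Nkx2-5, was in 5 of 28 subunits, Med10 and Med31 among them, and in 13.1% of all genes. In the sequences above it is the capitals of Med10, and of Med31 on the opposite strand. CCGGAAG, bound by ETS factors, was in 8 of 28 (28.6%) against 9.9% of all genes, among them Med10, which fell, and Med18, which rose. Neither match is in the sequences above. The Med10 matches are in its second window, inside the annotated gene, and the Med18 match lies after the start. The palindromic Nrf1 motif was in 4 of 28 (14.3%) against 5.2%. The capitals of Med18 are the Nrf1 pattern on the opposite strand. Overlapping matches of one pattern were counted once per gene. The upstream 250 bases of Med13l were 84.0% G and C, those of Med12l 72.0% and those of Med9 60%, against a median of 52.4% over all windows. The other called genes lay nearer that median, with Med10 at 47.6% and 56% in its 2 windows, Med18 at 52.8% and Med31 at 55.2%. Med13 at 80% and Med14 at 72.0% did not pass the test and were as rich in G and C. These matches are letters in the sequence and not measured sites.

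The rest of the transcription machinery was described from lists of genes that act with Mediator. None of 10 measured core subunits of polymerase II passed by limma, where 1 had an unadjusted p under 0.05, and Polr2h at 0.24 (adjusted p = 0.0674) and Polr2j at 0.09 differed most. Of 17 general transcription factor genes 1 rose, Gtf2b, which bridges the promoter complex and the polymerase, at 0.21 (adjusted p = 0.0371). That count was 0 when any array but Rhau KO replicate 3 was left out, 2 without that array, and 0 with median centring, where 1 gene fell. Of 15 TFIID genes 2 rose, Taf4 at 0.35 (adjusted p = 0.0197) and Taf1 at 0.27 (adjusted p = 0.0372). The count was 0 without wildtype replicate 1, wildtype replicate 3 or Rhau KO replicate 2, and 1 without any other array. With median centring 1 rose and 2 fell. Taf4 and Taf1 are subunits of the factor that recognises the core promoter. TFIID had a median of 0.02, the general factors 0.07 and the polymerase 0.03, against 0.01 over all genes, of which 8.20% rose and 10.8% fell.

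Elongation factors that Med26 recruits had 2 lower and 0 higher of 10. That share of 20.0% lay near the 19.0% of all genes tested (10.8% lower and 8.20% higher) and is no result about the list. Ell2, a subunit of the super elongation complex, fell by 0.65 (adjusted p = 0.0111), and Aff1, one of its scaffolds, fell by 0.41 (adjusted p = 0.00723), with a list median of -0.11. Of 10 cohesin and loader genes, whose products hold enhancer and promoter together with Mediator, 1 rose, the ring subunit gene Rad21 at 0.25 (adjusted p = 0.038), with a list median of 0.13. The count was 0 when any wildtype array or Rhau KO replicate 2 was left out, and 0 with median centring and with no filter. Among 10 enhancer coactivators the acetyltransferase gene Ep300 fell from 11.05 ± 0.13 to 10.52 ± 0.10 (SD, n = 3 each), a difference of -0.53 (adjusted p = 9.96e-04), and the list median was -0.09. None of 12 activators known to contact Mediator passed by limma, where 2 had an unadjusted p under 0.05. Srebf2 at 0.18 (adjusted p = 0.312) and Elk1 at -0.17 (adjusted p = 0.611) differed most, both with overlapping groups. The list median was -0.08, with 10 genes below 0 and 2 above, where 5966 of all 12416 genes tested lay below 0.

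**Figure D5:**
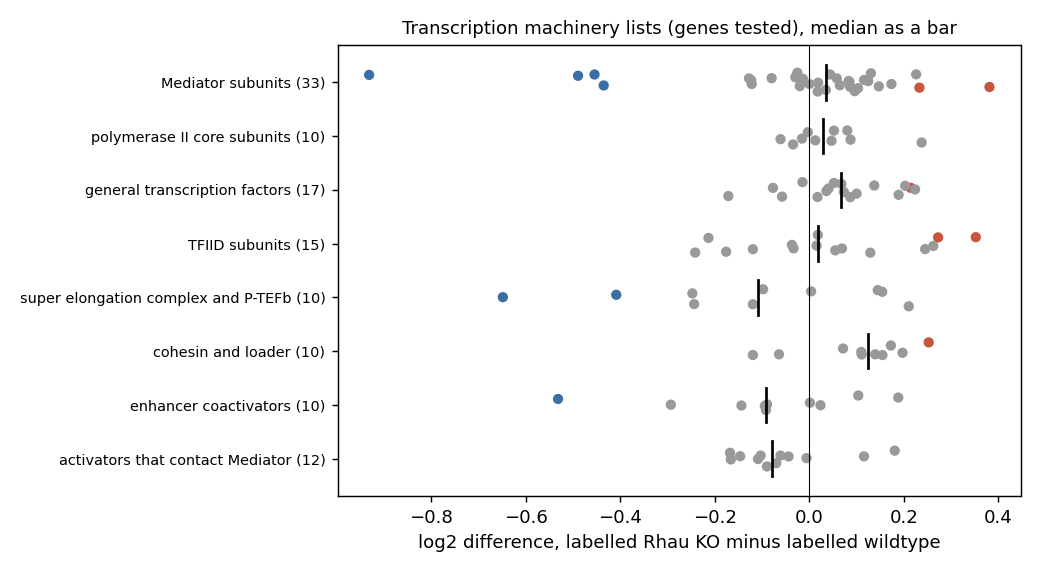
Log2 difference (labelled Rhau KO minus labelled wildtype) of each tested gene of the Mediator family and of 7 lists of transcription genes, with the number tested in parentheses, blue for genes that fell, red for genes that rose, grey for those that did not pass, and a bar at the median. Medians lie between -0.11 and 0.13, and Med13l at -0.93 and Ell2 at -0.65 are furthest to the left.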

How the data were processed

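Per the labels' protocols, Trizol-extracted heart RNA was amplified to biotin-labelled cRNA for Affymetrix mouse arrays. The authors deposited log2 values made with MAS5 per the submitters' processing notes, without a stated version. They were used as deposited, since the 2% trimmed mean of the unlogged signal was equal on all 6 arrays. Precision is limited by the 6 arrays.

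Of 45101 probe sets, 64 controls were left out. The platform annotation gave 34945 probe sets 1 gene, 932 several and 9160 none, and symbols were updated through Entrez identifiers with the RefSeq table of GRCm38.p6, which held 34741 of them. Genes were dropped where the brightest probe set was among the lowest 40% (log2 signal 5.90). Limma 3.58.1 in R 4.3.3 (lmFit, eBayes with trend) was fitted over 12416 genes with Benjamini-Hochberg adjustment over all of them and a threshold of 0.05, two-sided. Differences are labelled Rhau KO minus labelled wildtype. Where nothing says that samples came from separate litters, p-values measure the spread between these arrays. On simulated arrays of these 12416 genes the fit recovered 50.7% of 67 genes set to a 1.5-fold change. It recovered 83.6% of 67 at 2-fold and 98.5% of 66 at 4-fold, and 3.12% of its calls were false. Only these genes were changed, with noise drawn separately for each gene, whereas 19.0% of genes passed on the real arrays. Differences shared by many genes of an array were not simulated. The simulated shares therefore need not hold for the real arrays.

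Members, lists, named genes and alternatives were chosen with earlier results of these data known. All subunits were named, with up to 3 called members of each transcription list of largest change, or otherwise 2. Module membership follows textbook assignment. Same-numbered arrays did not deviate together (correlations -0.012, 0.045 and 0.013), so the numbers were not used as pairs. Python 3.11.15, pandas 2.3.3 and matplotlib 3.10.9 served for tables and plots.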

Additional observations from a re-analysis of the deposited data

How the results depend on the processing

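The count of 4 lower subunits was 3 or 4 under every alternative but one: adding the Y-linked covariate made it 1, Med13l, whose call was kept under all 18 alternatives at -1.0 to -0.64. The count of 2 higher subunits was 1 with quantile normalization, with no filter and with all probe sets averaged, and 0 with median centring, with eBayes without trend, with the Y-linked covariate and over only those 3 arrays that carry Xist beside Y-linked signal, an alternative chosen after seeing the data. That fit sets 1 wildtype array against 2, so the lone array is assumed to vary like the others, and its counts say little. It was 0 to 1 when each array was left out in turn. The cause was not tested, except that leaving out arrays lowers the number of samples. The median difference of 0.0352 was -0.034 with median centring, which moves all genes by construction, and -0.00312 with averaged probe sets. It was 0.0617 without wildtype replicate 1 and 0.0185 without wildtype replicate 2. Med12l, Med10 and Med9 kept their calls under 15, 17 and 17 of 18 alternatives, with adjusted p up to 0.382, 0.116 and 0.0862, and Med18 and Med31 under 5 and 9. Every probe set on its own, also added after seeing the data, left Med18 without a call. No alternative gave a call to any of the 27 other subunits. With the replicate number as a replicate block the counts were 2 higher and 4 lower, and over all genes 955 and 1300; the block changed no call of a subunit, but gave 1 higher TFIID gene, 0 higher general factors and 1 higher polymerase gene. Averaged probe sets gave 0 higher TFIID genes, eBayes without trend gave 0 higher genes in the TFIID, general factor and cohesin lists, and so did the Y-linked covariate. Over all genes 1018 were higher and 1336 lower, 43.2% higher, but 532 and 1846, 22.4% higher, with median centring, 46 and 132 with the Y-linked covariate, 588 and 806 with averaged probe sets, 614 and 878 with eBayes without trend, and 298 and 448 in the fit of 1 array against 2. Leaving out 1 array gave 590 to 802 higher and 916 to 1206 lower. The 3 paralog ratios kept their direction under all alternatives run, at 0.06 to 0.29 for Cdk8 over Cdk19, 0.38 to 0.73 for Med12 over Med12l and 0.82 to 1.06 for Med13 over Med13l.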
